A study of Mus musculus with 70 samples.

Results

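The non-immune (CD45-) fraction of control tumors was compared between day 7 and day 3 after sham ablation, using 15 libraries of the 70 in the series. The members were chosen by their labels: 4 libraries were CD45-, control and day 3, and 11 were CD45-, control and day 7. The tumors were B16F10, a pigmented mouse melanoma line, grown on both flanks of C57BL/6 mice that were 6 to 8 weeks old when purchased, and one flank received a sham in place of the focused ultrasound ablation called histotripsy. None of the 15 libraries came from an animal given histotripsy, and the labels do not say which flank a control library came from. Cells were sorted by flow cytometry on CD45, the surface protein that marks leukocytes, so the CD45- fraction holds melanoma cells with whatever stroma the tumor contained. The labels tie no library to an animal, so the p-values below measure the spread between libraries. The sources give no batch, the day 3 and day 7 libraries were deposited in separate tables, and day and batch cannot be told apart. The comparison asks what the passage from day 3 to day 7, with the tumors left to grow, was accompanied by in this fraction as a whole. The study's methods describe warm enzymatic dissociation of tumors before flow cytometry, and its part in the levels below was not tested.

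B16F10 cells carry the melanocyte program. The transcription factors Mitf and Sox10 drive the enzymes and structural proteins of the melanosome, and melanoma cells can lose that program and take on a less differentiated one marked by Axl. A tumor that outgrows its blood supply is known to turn on hypoxia and glycolysis genes through Hif1a, and interferon gamma from T and NK cells raises the MHC class I machinery in tumor cells. Immediate early genes such as Fos, Jun and Klf4 encode transcription factors that are switched on within minutes of a stimulus and decay quickly.

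The libraries held 1335518 to 3132646 counts on day 7 and 1620780 to 2403889 on day 3, and each level below is in CPM, a count divided by the library total and scaled to 1000000. The single entry CT010467.1 took 6.21% to 9.69% of the counts. Ptprc, which encodes CD45, reached at most 0.470 CPM on day 3 and 0.566 CPM on day 7, against 651 to 1252 CPM in the CD45+ control libraries of day 7. The melanosome genes were the reverse, with Pmel between 2581 and 3682 CPM on day 7 in the CD45- fraction and between 3.25 and 30.5 CPM in the CD45+ fraction of that day. Xist, the noncoding RNA of the inactive X chromosome, offered a second gauge of host RNA. It lay between 440 and 915 CPM in the CD45+ control libraries of day 7, and between 0 and 4.49 CPM on day 7 and 0.832 and 11.7 CPM on day 3 in the CD45- libraries. The labelled fraction matched its defining markers on both days.

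No gene differed between the days at an adjusted p under 0.05. The edgeR quasi-likelihood test covered 10580 genes and called 0 of them (0%), the smallest adjusted p being 0.336. At an unadjusted p under 0.05 there were 569 genes (5.38%), of which 285 (2.69%) had the higher level on day 7 and 284 (2.68%) the lower. The median log2 fold change over all genes was -0.0021, and 49.3% of the estimates lay above 0. Libraries of the days did not overlap in CPM for 6 genes higher on day 7 (0.0567%) and for 9 lower on day 7 (0.0851%). DESeq2 called 1 gene, Klf4, with 607 of 27395 genes at an unadjusted p under 0.05. By limma-voom 0 were called, with 531 of 10580.

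The data bounded most genes rather than leaving them unresolved. The 95% interval of the log2 fold change lay between -1 and 1, within 2-fold either way, for 9818 of 10580 genes (92.8%). Among the 6254 genes with a mean of at least 20 CPM it did so for 6202 (99.2%). The interval reached, at the median, 0.305 to either side of the estimate on the log2 scale. Only 50 genes had an estimate beyond 1 in size, and 37 of these had an unadjusted p under 0.05.

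All 14 melanosome and pigment genes were tested and 0 were called, 10 with an estimate above 0 and a median log2 fold change of 0.03. The 95% interval lay inside -1 to 1 for 13 of the 14. The list summed to 35623 to 39711 CPM on day 3 and to 32946 to 39448 CPM on day 7, with 4 of the 11 day 7 libraries below the lowest of day 3. Dct, the enzyme dopachrome tautomerase and the most abundant of those named here, ran from 21817 to 26625 CPM on day 3 and from 20582 to 24809 CPM on day 7, with a log2 fold change of -0.08 (95% interval -0.28 to 0.12). Mlana, a melanosome protein and T cell antigen, ran from 1224 to 1485 CPM on day 3 and from 1161 to 1516 CPM on day 7, with a log2 fold change of 0.02 (-0.14 to 0.19). For Tyr, the rate-limiting enzyme of melanin synthesis, the value was 0.04 (-0.14 to 0.22). The libraries of the days overlapped for each of these genes.

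Of 6 melanocyte transcription factors tested, 0 were called, 3 had an estimate above 0 and 3 below, and the median was 0.05. Mitf, the master regulator of the lineage, had 1114, 1354, 1365 and 1388 CPM on day 3, and on day 7 a low of 1340, a median of 1478 and a high of 1786 CPM. Its log2 fold change was 0.20 (-0.0033 to 0.40, adjusted p = 0.913 by edgeR). Sox10, which acts upstream of Mitf, had 323 to 360 CPM on day 3 and 345 to 402 CPM on day 7, with 10 of the 11 day 7 libraries above the highest of day 3 and a log2 fold change of 0.11 (-0.03 to 0.25). In both genes the lowest day 3 value came from replicate 2, the library with the most fibroblast RNA. Axl was low on both days, at 10.8 to 33.3 CPM and 6.73 to 28.5 CPM, and its log2 fold change of -0.16 carried a wide interval (-0.96 to 0.64).

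**Figure D1:**
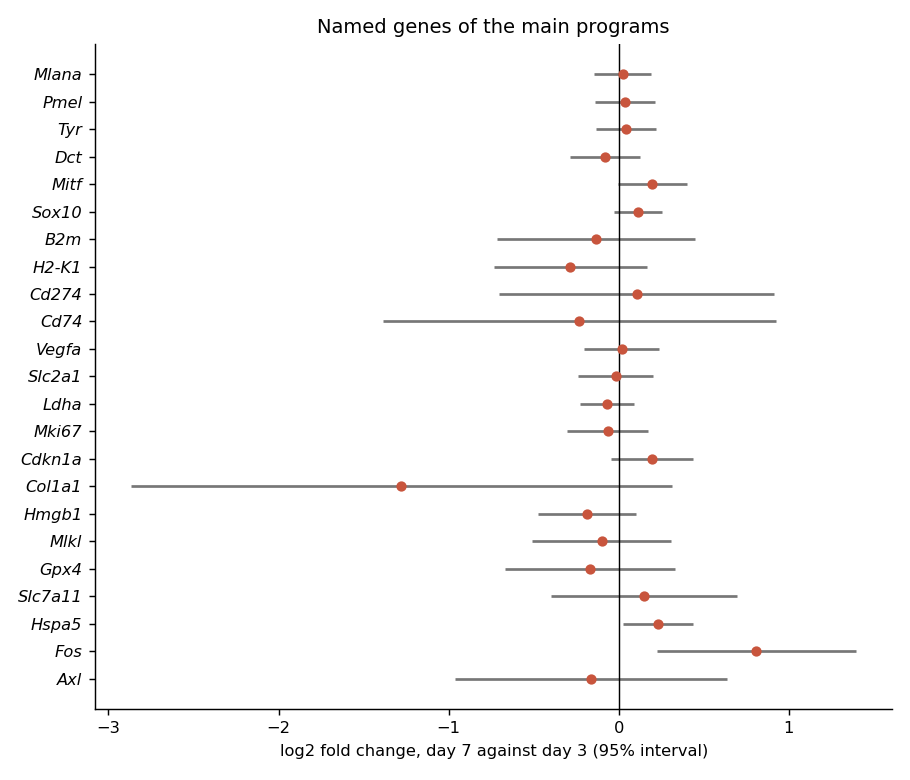
Log2 fold change, day 7 against day 3, of the named program genes that were tested (points), with 95% intervals (lines). Most intervals are narrow and span 0, such as Dct at -0.08, whereas the interval of the collagen Col1a1 runs from -2.87 to 0.31.

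The cell division, glycolysis and hypoxia genes tested were bounded inside a 2-fold change. Each of the 20 S phase genes and each of the 21 G2 and mitosis genes tested had a 95% interval inside -1 to 1, with medians of 0.04 and -0.01 and 0 called in either list. Mki67, a marker of cycling cells, had 78.4 to 96.5 CPM on day 3 and 56.1 to 107 CPM on day 7, with a log2 fold change of -0.06 (-0.30 to 0.17). The 19 glycolysis genes and the 21 hypoxia genes tested were likewise all bounded inside -1 to 1, with a median of -0.01 in each list. Vegfa, the hypoxia-induced vascular growth factor, was at 114 to 188 CPM on day 3 and 116 to 169 CPM on day 7 (log2 fold change 0.02, -0.20 to 0.24). The glucose transporter Slc2a1 gave -0.02 (-0.24 to 0.20) and the lactate dehydrogenase subunit Ldha gave -0.07 (-0.23 to 0.09). Ddit4, a stress-induced inhibitor of mTORC1, was the one hypoxia gene with an unadjusted p under 0.05, at a log2 fold change of 0.37 (adjusted p = 0.900 by edgeR). It is named after its values were seen.

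Genes of ferroptosis, an iron-dependent lipid peroxidation death, and of necroptosis and pyroptosis were tested because the wider study followed cancer cell death. Of 20 ferroptosis and glutathione genes tested 0 were called, with a median of 0.02, and all 20 intervals lay inside -1 to 1. Txnrd1 and Chac1 had an unadjusted p under 0.05 with the higher level on day 7, as did 2.69% of all genes. Gpx4, the enzyme that repairs peroxidized lipids, had 7.40 to 27.1 CPM on day 3 and 10.5 to 25.3 CPM on day 7 (log2 fold change -0.17, -0.67 to 0.33). Slc7a11, the cystine importer that feeds glutathione synthesis, gave 0.15 (-0.40 to 0.70). Of 13 lytic death genes tested 0 were called, with a median of -0.15, and 8 of the intervals lay inside -1 to 1. Casp8 alone had an unadjusted p under 0.05, with the higher level on day 7. Txnrd1, Chac1 and Casp8 are named after their values were seen. Mlkl, the pore-forming effector of necroptosis, gave -0.10 (-0.51 to 0.31), and Hmgb1, the nuclear protein released by dying cells, gave -0.18 (-0.47 to 0.10). Hspa5, the main chaperone of the endoplasmic reticulum, leaned to day 7 at 0.23 (0.03 to 0.44) with an adjusted p of 0.901 by edgeR.

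The genes with the smallest p-values are described next, none of which passed the test. They were taken from the 12 smallest p-values among genes with at least 20 CPM on one of the days, and they were chosen by the values they show. The predicted genes Gm47483 (log2 fold change -0.88) and Gm43581 (-1.39), together with Tiprl (-0.35), Ncald (0.40) and Ddx6 (-0.26), belong to the same 12 and are given by their estimates alone. Klf4, a Kruppel-like transcription factor at chr4:55527143-55532466 on the minus strand of GRCm38, had 176, 205, 284 and 256 CPM in day 3 replicates 1 to 4. On day 7 its lowest library had 191 CPM, the median was 409 CPM and the highest had 549 CPM. Of the 11 day 7 libraries 10 lay above each day 3 library, and replicate 1 alone fell among them. Day 3 averaged 230 ± 48.8 CPM (SD, n = 4) and day 7 averaged 415 ± 103 CPM (SD, n = 11). The log2 fold change was 0.85 ± 0.17 (SE) with an adjusted p of 0.336 by edgeR. DESeq2 gave 0.0165. In edgeR, leaving out day 7 replicate 1, the library that fell among those of day 3, gave 0.00242, and no filter on low counts gave 3.95e-05. The following settings did not call Klf4. Its adjusted p was 0.344 by limma-voom and 0.0752 by limma-voom with sample quality weights. By edgeR it was 0.389 with library totals, 0.365 with all CD45- libraries in the fit and 0.305 with replicate number as a block.

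Nsdhl, a sterol dehydrogenase of cholesterol synthesis at chrX:72918557-72958514, had 79.6, 75.1, 102 and 84.4 CPM on day 3 and 97.7 to 143 CPM on day 7, with a median of 121 CPM. Its log2 fold change was 0.47 ± 0.10 (SE, adjusted p = 0.336 by edgeR). On day 7, 9 of 11 libraries lay above the highest day 3 library. Tmem106c, a transmembrane protein gene at chr15:97964200-97970275, had 12.3, 21.6, 23.3 and 23.3 CPM on day 3 and 26.5 to 39.1 CPM on day 7. The days did not overlap, and the log2 fold change was 0.58 ± 0.14 (SE, adjusted p = 0.460 by edgeR).

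On the lower side, Ppp3r1, the regulatory subunit of the phosphatase calcineurin at chr11:17159263-17200375, had 177, 180, 162 and 161 CPM on day 3 and 106 to 148 CPM on day 7, with no overlap. Its log2 fold change was -0.37 ± 0.08 (SE). U2af1, a subunit of the splicing factor that recognizes 3′ splice sites, at chr17:31647081-31658892, had 228 to 286 CPM on day 3 and 164 to 226 CPM on day 7, also with no overlap and a log2 fold change of -0.38 ± 0.08 (SE). Eml2, a microtubule-associated protein gene, had 229 to 407 CPM on day 3 and 130 to 257 CPM on day 7, with a log2 fold change of -0.68 ± 0.16 (SE). The adjusted p by edgeR was 0.336 for each of these 3 genes.

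Saa3, an acute phase apolipoprotein of inflamed tissue, had the largest of these estimates and the most uneven values. Its day 3 libraries held 22.2, 100.03, 5.602 and 1.66 CPM, in the order of replicates 1 to 4. On day 7 it ran from 0 to 15.8 CPM with a median of 3.18 CPM. The log2 fold change of -2.73 ± 0.64 (SE, adjusted p = 0.350 by edgeR) rested on day 3 replicates 1 and 2, which also held the most fibroblast RNA of that day. When 1 library was left out, the estimate ran from -3.15 to -0.85.

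**Figure D2:**
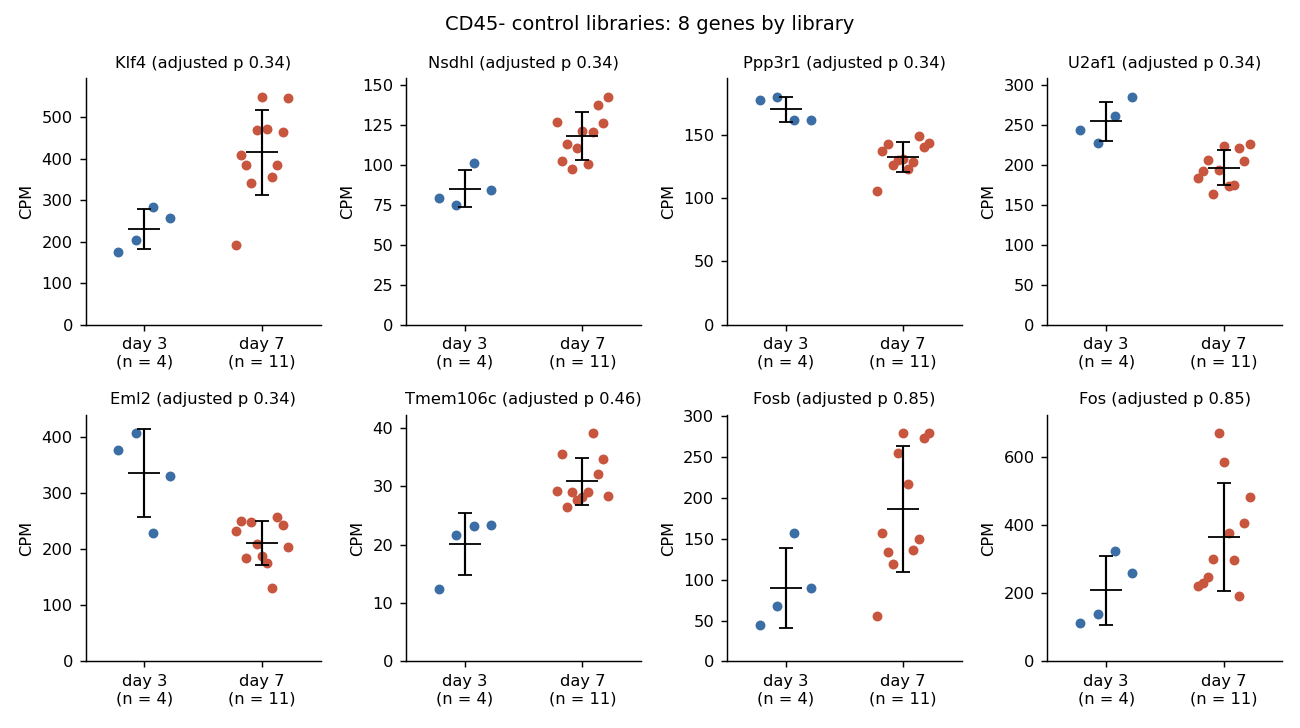
CPM of 8 genes in each CD45- control library on day 3 (blue, n = 4) and day 7 (red, n = 11), with bars at mean ± SD. Ppp3r1, U2af1 and Tmem106c do not overlap between the days, whereas Klf4, Nsdhl, Eml2, Fosb and Fos do.

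Immediate early genes leaned to day 7 as a list. Of 24 listed, 20 were tested, 0 were called, and all 20 had an estimate above 0, beside 49.3% of all genes. Their median log2 fold change was 0.61, and 15 had an unadjusted p under 0.05 with the higher level on day 7, beside 2.69% of all genes. Earlier results of these data were known when the list was drawn, so neither count is independent evidence. Of the 20 intervals 10 lay inside -1 to 1.

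Fosb, a partner in the AP-1 transcription factor, had 45.0, 67.6, 158 and 89.4 CPM on day 3 and 55.4 to 279 CPM on day 7, with a median of 157 CPM. Its log2 fold change was 1.05 ± 0.30 (SE, adjusted p = 0.849 by edgeR). Fos, another AP-1 subunit, had 112, 139, 324 and 259 CPM on day 3 and 191 to 670 CPM on day 7, with 5 of the 11 above the highest of day 3 (log2 fold change 0.81, 0.22 to 1.40). Jun, with which Fos pairs, gave 0.64 (0.16 to 1.11), and Atf3, a stress-induced factor of the ATF family, gave 0.70 (0.25 to 1.15). Klf2, a factor related to Klf4, had the highest estimate of the list at 1.22 (0.42 to 2.01). At the other end Junb gave 0.09 and Zfp36, an mRNA decay factor, gave 0.14.

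The summed level of the list was uneven among the day 7 libraries. The sums on day 3 were 2135, 2366, 3112 and 2720 CPM. On day 7, replicates 5, 6, 7, 10 and 11, had 5316, 5619, 4026, 4741 and 4921 CPM, and the other 6 had 2559 to 3247 CPM, against at most 3112 CPM on day 3. Those 5 libraries also had the 5 highest sums of erythroid genes, 92.3 to 173 CPM against 11.5 to 53.8 CPM in the other 6. The part of red cell content in these sums was not tested. Without the 4 libraries with the most fibroblast RNA the list median was 0.49, and the estimate for Klf4 was 0.73 (adjusted p = 0.888 by edgeR).

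The promoters of Klf4, Fosb and Fos are shown because these genes stood among the leading estimates of the list. The stretches are upstream of the RefSeq start site in GRCm38.p6, at chr4:55532476-55532725 (minus strand), chr7:19310052-19310295 (minus strand) and chr12:85473640-85473889 (plus strand). They are written 5′ to 3′ with capitals marking the core TGACG of the cAMP response element, or its reverse complement CGTCA.
Klf4: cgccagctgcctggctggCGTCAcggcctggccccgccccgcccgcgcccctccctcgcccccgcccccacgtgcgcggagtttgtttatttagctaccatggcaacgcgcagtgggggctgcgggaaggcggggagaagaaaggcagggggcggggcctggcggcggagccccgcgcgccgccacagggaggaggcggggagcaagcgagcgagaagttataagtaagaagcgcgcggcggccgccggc
Fosb: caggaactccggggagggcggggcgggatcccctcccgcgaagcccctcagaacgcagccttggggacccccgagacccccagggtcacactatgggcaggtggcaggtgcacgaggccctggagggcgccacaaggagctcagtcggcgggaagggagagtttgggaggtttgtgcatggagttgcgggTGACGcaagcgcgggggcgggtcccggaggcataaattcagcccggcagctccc
Fos: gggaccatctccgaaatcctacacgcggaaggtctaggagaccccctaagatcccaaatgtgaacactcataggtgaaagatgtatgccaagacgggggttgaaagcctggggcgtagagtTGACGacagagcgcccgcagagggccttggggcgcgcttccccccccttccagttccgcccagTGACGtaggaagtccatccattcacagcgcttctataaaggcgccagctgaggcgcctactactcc
Of 17 listed immediate early genes that have a RefSeq promoter, taken from 250 bases before the start to 50 after it, 10 (58.8%) held the core on either strand, against 23.05% of 27025 genes. The motif was chosen after the values were seen, and a match describes letters and no binding.

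**Figure D3:**
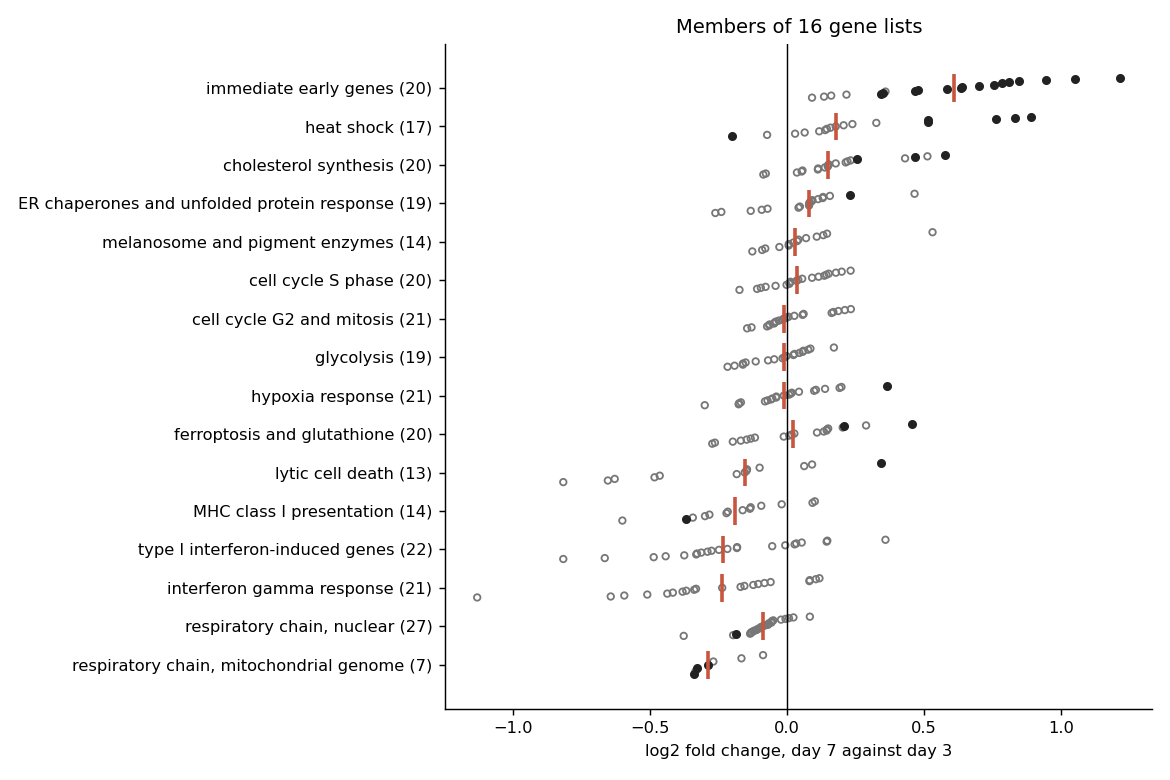
Log2 fold change, day 7 against day 3, of each tested member of 16 gene lists, with the number tested in brackets. Filled points have an unadjusted p under 0.05, open points do not, and red bars are list medians, from 0.61 for immediate early genes to -0.29 for genes of the mitochondrial genome; no member passed the adjusted threshold.

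Heat shock chaperones showed a smaller lean of the same direction. Of 17 tested 0 were called and 15 had an estimate above 0, beside 49.3% of all genes, with a median of 0.18. In all, 5 had an unadjusted p under 0.05 on the higher side, beside 2.69% of all genes. They were Hspa1b, Dnajb1, Hspb1, Hsph1 and Dnajb4, and Hspa4 had one on the lower side. This list too was drawn with earlier results known, so the counts are not independent evidence. Hspa1b, the inducible HSP70, had 98.6 to 146 CPM on day 3 and 68.1 to 420 CPM on day 7 with a median of 177 CPM, a log2 fold change of 0.89 (0.20 to 1.59). Its reads can be shared with the near-identical Hspa1a. Dnajb1, the HSP40 partner of HSP70, ran from 157 to 192 CPM on day 3 and from 148 to 625 CPM on day 7 (0.83, 0.19 to 1.48). The constitutive members were closer to 0, with Hspa8 at 0.16 and Hsp90ab1 at 0.15.

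Of the 20 cholesterol synthesis genes tested, 0 were called and 18 had an estimate above 0, beside 49.3% of all genes, with a median of 0.15. Of these, 3 had an unadjusted p under 0.05, all with the higher level on day 7, beside 2.69% of all genes. The list was drawn with earlier results known. Besides Nsdhl they included Msmo1, a sterol monooxygenase of the late steps, at 0.25 (0.0009 to 0.51). The summed level of the list was lowest in day 7 replicates 1 and 2, at 2402 and 2565 CPM, and highest in replicates 10 and 11, at 4012 and 4088 CPM.

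Transcripts of the mitochondrial genome all lay below 0. Of 13 listed, 7 were tested, 0 were called, and the median log2 fold change was -0.29. The complex I subunit mt-Nd4 had 4266 to 6341 CPM on day 3 and 3387 to 4689 CPM on day 7 (-0.33, -0.57 to -0.09). Day 3 replicate 1 had the highest sum of the list, 33434 CPM, against 20291 to 27405 CPM in the other 3 day 3 libraries and 17501 to 26857 CPM on day 7. Without the 4 libraries with the most fibroblast RNA, replicate 1 among them, the median was 0.0050, and without that replicate alone it was -0.12. The 27 nuclear respiratory chain genes tested had a median of -0.09 with 0 called, and 26 of the intervals lay inside -1 to 1.

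The interferon programs varied widely between libraries of the same day. Of 21 interferon gamma response genes tested 0 were called, 4 had an estimate above 0 and the median was -0.24. That median ran from -0.39 to -0.064 when 1 library was left out, the smaller size coming without day 3 replicate 2, and it was -0.47 by limma-voom. The summed level ran from 419 to 799 CPM on day 3 and from 221 to 832 CPM on day 7. Day 7 replicates 5, 6 and 7 had 832, 735 and 780 CPM, near the highest day 3 library, and replicates 3, 10 and 11 had 264.5, 226 and 221 CPM. On day 7, 6 of 11 libraries lay below the lowest of day 3. Across the members the median SD of log2(CPM + 1) among the day 7 libraries was 0.87, against 0.25 over all tested genes.

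Gbp2, an interferon-induced GTPase, showed the pattern, with 34.6, 54.0, 46.1 and 25.4 CPM on day 3 and 7.49 to 52.8 CPM on day 7 (log2 fold change -0.59, -1.36 to 0.17). The 22 type I interferon-induced genes tested had a median of -0.23, with 0 called and 6 above 0, and -0.048 without day 3 replicate 2. For MHC class I presentation 14 genes were tested, 0 were called, 2 were above 0 and the median was -0.19, or -0.050 without day 3 replicate 2. B2m, the invariant light chain of MHC class I, had 748 to 1381 CPM on day 3 and 496 to 1747 CPM on day 7 (-0.13, -0.72 to 0.45). The heavy chain H2-K1 gave -0.28 (-0.73 to 0.17), and Psmb10, an immunoproteasome subunit, was the one member with an unadjusted p under 0.05, at -0.37 (-0.69 to -0.04, adjusted p = 0.901 by edgeR). Cd274, which encodes the checkpoint ligand PD-L1, was near the lower end of detection at 1.85 to 11.3 CPM on day 3 and 2.34 to 11.99 CPM on day 7.

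Fibroblast and red cell markers were uneven between libraries, whereas monocyte and macrophage, Schwann cell and endothelial markers were steadier. Some marker lists with low sums were uneven too, such as the adipocyte markers on day 3. Monocyte and macrophage markers, of which 3 of 14 were tested, summed to 527 to 573 CPM on day 3 and 531 to 651 CPM on day 7. Schwann cell markers, a lineage that shares genes with melanocytes, summed to 693 to 832 CPM on day 3 and 522 to 900 CPM on day 7. Endothelial markers summed to 96.1 to 172 CPM on day 3 and 94.9 to 135 CPM on day 7. In bulk libraries, fewer cells of a type and less RNA per cell cannot be told apart. The 12 fibroblast markers summed to 373, 1191, 142 and 89.9 CPM in day 3 replicates 1 to 4, and to 821 and 547 CPM in day 7 replicates 1 and 2 against 80.6 to 218 CPM in the other 9. Of the 12, 8 were tested and 0 were called, with a median log2 fold change of -1.30. The median was 0.19 without day 3 replicate 2 and 0.47 without the 4 libraries with the most fibroblast RNA, so the data fix no direction for the list. Col1a1, a chain of type I collagen, had 117, 405, 34.9 and 7.90 CPM on day 3 and 5.62 to 300 CPM on day 7, with a log2 fold change of -1.28 and a wide interval (-2.87 to 0.31). Without day 3 replicate 2 that estimate was 0.24, so its direction rested on 1 library. Pecam1, an endothelial marker, stayed at or below 7.98 CPM in each library.

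Globin transcripts varied just as widely. The 7 erythroid genes summed to 3.70, 6.10, 19.0 and 63.2 CPM on day 3 and to 11.5 to 173 CPM on day 7, with a median of 53.8 CPM. Of these 4 were tested and 0 called, the median estimate being 1.22 on the log2 scale. That median ran from 0.95 to 2.32 when 1 library was left out, the highest without day 3 replicate 4. With replicate number as a block it was -0.71, so the data fix no direction for the list. Hbb-bs, an adult beta globin, had a log2 fold change of 1.81 (0.37 to 3.25, adjusted p = 0.876 by edgeR), and Hba-a2, an alpha globin, had 1.35 (0.02 to 2.68). Each globin shares reads with a close copy, so the values of single copies are uncertain. Neutrophil markers summed to at most 3.08 CPM on day 3 and 1.03 CPM on day 7, and B cell markers to at most 0.617 CPM and 0.937 CPM.

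**Figure D4:**
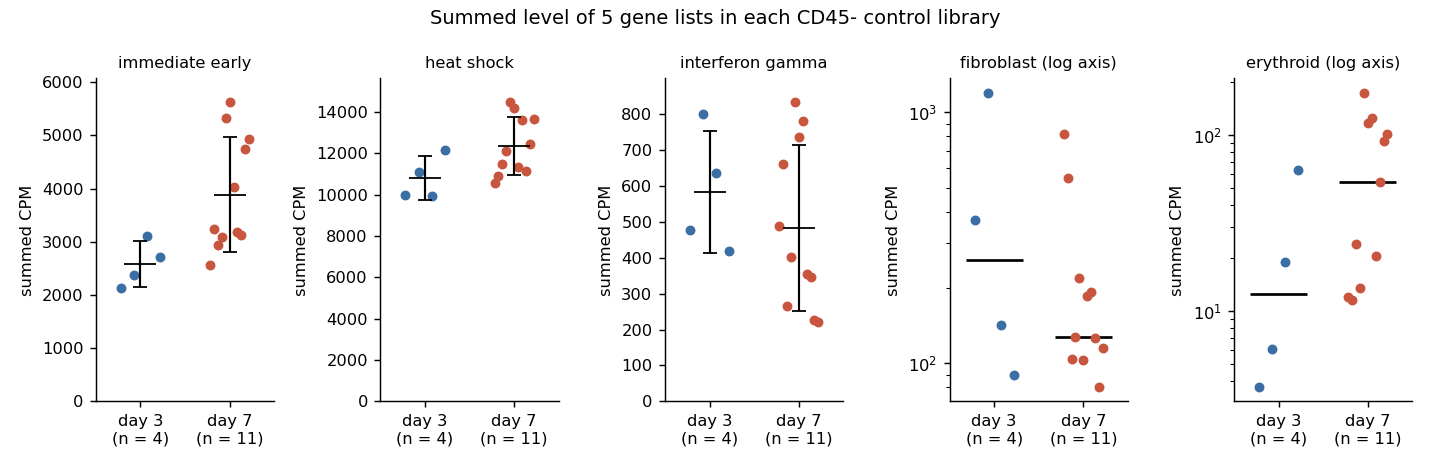
Summed CPM of 5 gene lists in each CD45- control library on day 3 (blue, n = 4) and day 7 (red, n = 11); bars give mean ± SD on the linear axes and lines give medians on the log axes. Immediate early sums reach 5619 CPM in 1 day 7 library against at most 3112 CPM on day 3, while interferon gamma, fibroblast and erythroid sums spread widely within each day.

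The libraries of the days did not separate in a principal component analysis of the 500 most variable genes on a log10(CPM + 1) scale. The first component held 26.5% of the variance and put day 3 replicates 1 and 2 with day 7 replicates 1 and 2 at one end, where fibroblast genes such as Col1a1, Lox and Dcn had the strongest weights. The third, with 12.4%, had the interferon genes Irgm2, H2-D1 and Tap1 at one end.

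**Figure D5:**
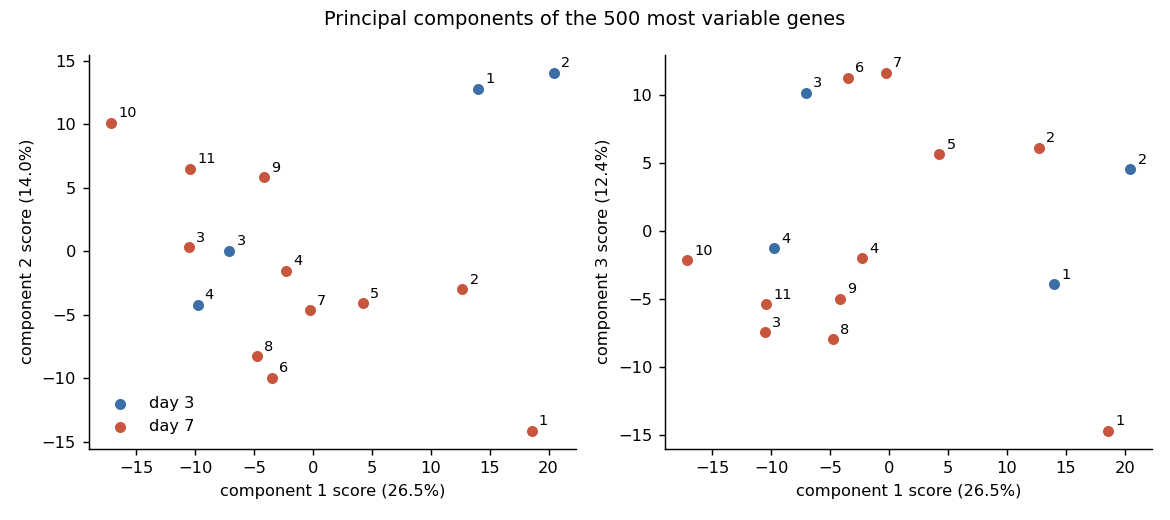
Scores of the 15 CD45- control libraries on principal components 1 and 2 (left) and 1 and 3 (right), with replicate numbers beside the points. Day 3 (blue) and day 7 (red) libraries intermingle on each axis, and replicates 1 and 2 of both days lie at the right of the first component, which held 26.5% of the variance.

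The day effect was then set against that of the CD45- fraction of histotripsy-abscopal tumors, which were untreated tumors opposite an ablated one (7 libraries on day 3 and 4 on day 7). The test of the difference between the day effects covered 11010 genes and called 1 (0.00908%), with 886 (8.05%) at an unadjusted p under 0.05. The gene was Espn, which encodes the actin-bundling protein espin, at chr4:152120331-152152371. In control tumors Espn had 47.4 to 66.4 CPM on day 3 and 51.6 to 74.4 CPM on day 7 (log2 fold change 0.09, -0.14 to 0.32). In abscopal tumors it had 52.7 to 89.0 CPM on day 3 and 33.2 to 45.3 CPM on day 7, with no overlap. The difference was 0.97 ± 0.17 (SE, adjusted p = 0.0324 by edgeR), and it missed the threshold when library totals replaced the TMM factors (adjusted p = 0.145). Of 26 fits that each left out 1 library, 15 kept it past the threshold.

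Klf4 came next, with a difference of 1.42 ± 0.27 (SE, adjusted p = 0.0631 by edgeR). Its abscopal values were 306 to 660 CPM on day 3 and 221 to 391 CPM on day 7, so the abscopal estimate of -0.58 was opposite in sign to the 0.85 of control tumors. Lmna, which encodes the nuclear envelope proteins lamin A and C, had a difference of 0.76 ± 0.15 (SE, adjusted p = 0.0631 by edgeR). The list median of immediate early genes was 0.12 in abscopal tumors beside 0.61 in control tumors, and 0 of the 21 members tested passed the threshold for the difference by edgeR, with 7 at an unadjusted p under 0.05. DESeq2 called Klf4. So did edgeR without abscopal day 3 replicate 1 or 7, abscopal day 7 replicate 3, or control day 7 replicate 1 or 8. With no filter on low counts Klf4, Atf3, Fosb and Jund were called.

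Against the CD45+ fraction of control tumors (4 libraries on day 3 and 10 on day 7) the test of the difference covered 12376 genes and called 0 (0%), with 610 (4.93%) at an unadjusted p under 0.05. DESeq2 also called 0, with 661 of 32643 genes at an unadjusted p under 0.05. Klf4 had 194 to 358 CPM on day 3 and 183 to 416 CPM on day 7 in the CD45+ fraction, a log2 fold change of 0.24 beside 0.85 in the CD45- fraction, and the difference of 0.57 had an adjusted p of 0.993 by edgeR. For Fosb the fractions gave 0.38 and 1.05, and for Fos 0.44 and 0.81. An absent call does not show that the fractions behaved alike.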

How the data were processed

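RNA of flow-sorted cells was made into QuantSeq 3′ libraries and sequenced as single reads. Per the labels and the study's methods, the authors trimmed reads with Trim Galore 0.5.0, aligned them to GRCm38 with STAR 2.6.0, merged reads with the same unique molecular identifier and assigned them to genes with featureCounts. The deposited values are raw counts per gene, in a table for each fraction and day. Here 55487 named lines were summed to 55367 symbols, since 234 lines shared a symbol, and the tables were joined by symbol. CPM were counts over library totals. edgeR 4.0.16 (R 4.3.3) was fitted to the 15 libraries with TMM factors after filterByExpr (minimum count 10, minimum total 15), tested by quasi-likelihood and adjusted by Benjamini-Hochberg at 0.05; SE and 95% intervals came from the F statistic. Differences between day effects were contrasts over 4 groups. DESeq2 1.42.0 and limma 3.58.1 were alternatives. The edgeR fit of day 7 against day 3 was tested on simulated data, and the other fits were not. Members and gene lists were chosen with earlier results of these data known. Named genes were a fixed set of 26 plus up to 12 called genes on each side, of which there were 0; other genes were chosen after their values were seen, and some items are not reported here. The leading genes by p had a mean of at least 20 CPM on one of the days. Gene positions are from GENCODE and promoters from RefSeq. No 2 libraries of a day agreed within sampling noise (the smallest chi-square was 2.48 per degree of freedom). Intervals cover the spread between libraries. The libraries with other treatments were not used in the main comparison, and the treated tumors were not analysed here beyond the fit with all CD45- libraries.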

Additional observations from a re-analysis of the deposited data

Results flagged for a closer look

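In 9 of 129 sets of 4 day 3 values, 1 library lay far from the other 3 by Dixon's criterion, which chance alone meets in about 1 of 20. The 129 include sets of low values that could not be marked, and the sets share the same libraries. The 2 rates are therefore not comparable. In replicate 2, which had the most fibroblast RNA, Mitf was low at 1114 CPM and Sox10 low at 323 CPM, while Axl was high at 33.3 CPM, Hspa4 high at 437 CPM and the adipocyte markers high at 23.01 CPM in sum. In replicate 3, Slc2a1 was high at 208 CPM against 147 to 149 CPM in the others, Slc7a11 was high at 34.9 CPM against 14.1 to 15.4 CPM, and the monocyte and macrophage markers were low at 527 CPM in sum. In replicate 1, Tmem106c was low at 12.3 CPM. Espn was flagged because its day effect differed between control and abscopal CD45- cells, by 0.97 on the log2 scale (adjusted p = 0.0324 by edgeR).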

How the results depend on the processing

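The count of 0 called genes for day 7 against day 3 held under limma-voom, library totals, all CD45- libraries in the fit, glmTreat at a fold of 1.5, the threshold of 1000000 counts (which each library passed), and, both chosen after seeing the data, sample quality weights and leaving out the 4 libraries with the most fibroblast RNA. DESeq2 called 1 (Klf4) and edgeR with no filter on low counts called 26, with 1411 of 27398 genes at an unadjusted p under 0.05. The cause was not tested. The 26 included Klf4, Fos, Fosb, Klf2, Atf3, Ier5, Rhob, Hspa1b, Dnajb1, Nsdhl and Saa3. Without one library in turn the count ran from 0 to 2 (Klf4 without day 7 replicate 1; Gm43581 and 1700120C14Rik without day 3 replicate 4), and the unadjusted count from 414 to 830. The labels do not say whether replicate numbers pair the days. Of 4 same-numbered pairs 2 had a correlation over 0.1 (range 0.03 to 0.27), and 2 of 4 day 3 libraries correlated best with their own number. These values do not settle whether the numbers share a source. With the replicate block 0 genes were called and 624 had an unadjusted p under 0.05. Under the block the list medians moved from 0.61 to 0.33 for immediate early genes, from 0.18 to 0.074 for heat shock, from 0.15 to 0.046 for cholesterol synthesis, from -0.29 to -0.046 for the mitochondrial genome, from -0.24 to -0.42 for interferon gamma, from -1.30 to -0.031 for fibroblast and from 1.22 to -0.71 for erythroid genes.

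The difference from the abscopal day effect had 10 calls in DESeq2, 0 with library totals and 140 with no filter (2006 of 30687 unadjusted). It had 0 to 6 without one library (698 to 987 unadjusted), and Espn passed in 15 of the 26 such fits. The difference from the CD45+ day effect had 6 calls with no filter (1311 of 32647 unadjusted) and 0 to 1 without one library, the unadjusted count running from 487 to 758.

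Of 84 named genes tested, 47 had an unadjusted p under 0.05 and 43 of these kept their direction under each alternative. Over all 84, the direction changed under some alternative for 26. Estimates that turned by more than 1 SE without the 4 fibroblast-rich libraries were Col1a1 (0.31), Col1a2 (0.68), Col3a1 (0.18), Dcn (1.03), Axl (0.29), mt-Nd6 (0.050) and Espn (-0.073). With the block these were Sqle (-0.15), Dcn (0.0098), Hbb-bs (-0.17) and Hba-a2 (-0.69). Leaving out one library gave Col1a1 -1.90 to 0.24, Col1a2 -1.79 to 0.38, Col3a1 -2.07 to 0.31, Dcn -2.13 to 0.24, Postn -1.98 to 0.082, Axl -0.37 to 0.45 and Cxcl9 -1.53 to 0.19, in each case turning without day 3 replicate 2. With 4 libraries on day 3, changes smaller than the interval of each gene were not detectable.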
